A study of Mus musculus with 20 samples.

Results

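The comparison described here is the net change of messenger RNA over the course of a class-switch stimulation, read in stimulated libraries alone. Libraries at 12, 24 and 48 h (late) were set against libraries at 15 min, 30 min and 1 h (early), which took 6 of the 20 libraries of the series, 3 on each side. They were assigned to the groups by their labelled treatment and time, with no measured value used. The comparison itself was chosen with earlier results of these data known. The libraries are poly-A libraries of mouse cells whose labelled tissue is spleen, and the labels do not say whether the cells were treated in culture. Both groups carried the same cocktail, which joins lipopolysaccharide (LPS) with the cytokines IL-4 (interleukin 4) and TGFb (transforming growth factor beta). Untreated libraries of the same 6 times, with none of the 3 agents, served as a second reference, and no genotype, strain or age is given for either arm. The design text names 1 treated and 1 untreated mouse, so the arms differ by animal as well as by treatment, and these cannot be told apart. Each time is 1 library, and the 3 times of a group stand in for replicates. Errors and p-values below therefore measure the spread between times of 1 source, not between animals.

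As background, class switch recombination lets an activated B cell exchange the constant region of its antibody. LPS binds Toll-like receptor 4 (TLR4) and drives NF-kB, IL-4 acts through its receptor and STAT6, and TGFb acts through receptor kinases and SMAD proteins, and together they choose which constant region is opened. The switch itself needs base excision and mismatch repair in the switch regions and joining of broken DNA ends, and it is tied to entry of the resting cell into division.

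Markers of B cells were abundant, with a summed level of 2009 to 2131 CPM late and 2665 to 2741 CPM early (CPM, counts relative to library size, scaled by the trimmed mean of M-values), and 11 of 12 markers were high enough to be tested. The exception, Cr2, had 0 to 15 counts in a library. Fcer2a, among those tested, met the limit of 1 CPM through the late libraries. Its early values were 0.915, 0.915 and 1.42 CPM at 15 min, 30 min and 1 h. T cell markers summed to 46.0 to 72.9 CPM late and 57.8 to 65.5 CPM early, most of it Cd5, with Cd2, Trat1 and Themis at 0 counts in all 6 libraries. Neutrophil markers summed to at most 0.106 CPM late and 0.325 CPM early, with S100a8, S100a9, Ly6g and Retnlg at 0, and erythroid markers to 1.73 to 2.36 CPM late and 2.05 to 2.40 CPM early. Macrophage markers summed to 109 to 168 CPM late and 118 to 159 CPM early, with Cd163 and C1qa at 0. Hmox1 was the most abundant, and without it they summed to at most 131 CPM late and 60.3 CPM early. Vcam1, on the same list, gave 40.5, 65.4 and 34.4 CPM of the sum at 12, 24 and 48 h and at most 0.211 CPM early. The near-equal sums therefore hold members that changed. Single markers stayed below 1 CPM in every library for 10 of 14 T cell, 10 of 10 neutrophil, 10 of 10 erythroid and 8 of 14 macrophage genes. Depth ran from 45900045 to 60918651 counts per library, and 3 counts, taken as the floor of detection, equalled 0.0493 to 0.0654 CPM, which covers counting error only. The 6 libraries were spread over 3 lanes per their labels. Lane 2 held 12 h, 24 h and 1 h, lane 4 held 48 h and 30 min, and lane 3 held 15 min. A change could therefore be read within lanes 2 and 4. Values within a lane are differences of log2(CPM + 0.5), not fitted fold changes. Lane 2 sets the mean of 12 and 24 h against 1 h, and lane 4 sets 48 h against 30 min. The added 0.5 makes the change of a gene with low values smaller than its fitted one. Untreated libraries were in lanes 1, 3 and 1 at 15 min, 30 min and 1 h and in lanes 1, 1 and 3 at 12, 24 and 48 h, so the arms were in different lanes at every time.

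The late and early libraries differed widely. Of 11536 genes with enough counts, 3184 rose (27.6%) and 3052 fell (26.5%), 6236 in all (54.1%), at an adjusted p under 0.05 in edgeR's quasi-likelihood test, and these shares are the background for every gene list below. Log2 fold changes, late over early, are given ± their standard error. Most changes were small, with a median of 0.64 on the log2 scale among genes that rose and −0.77 among genes that fell. Genes that changed over 2-fold were 664 that rose (5.76%) and 1050 that fell (9.1%). Late and early values did not overlap for 3551 genes with late above (30.8%) and 3774 genes with late below (32.7%). The first principal component held 79.3% of the variance and set the late libraries, at 45.1, 49.8 and 24.5, against the early ones, at −40.3, −41.2 and −37.9. The second, 12.6%, set the 48 h library apart, at 33.6, from 12 h at −18.5 and 24 h at −6.38. With lane as an additive term 5500 genes passed, of which 5217 were among the 6236 with the same sign. Calls fell to 4139 without the 30 min library and reached 7509 without the 48 h library. With library totals as the only scaling the median of all genes moved by over 0.1, to −0.13 against −0.01, and the split became 2506 higher and 3605 lower.

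**Figure D1:**
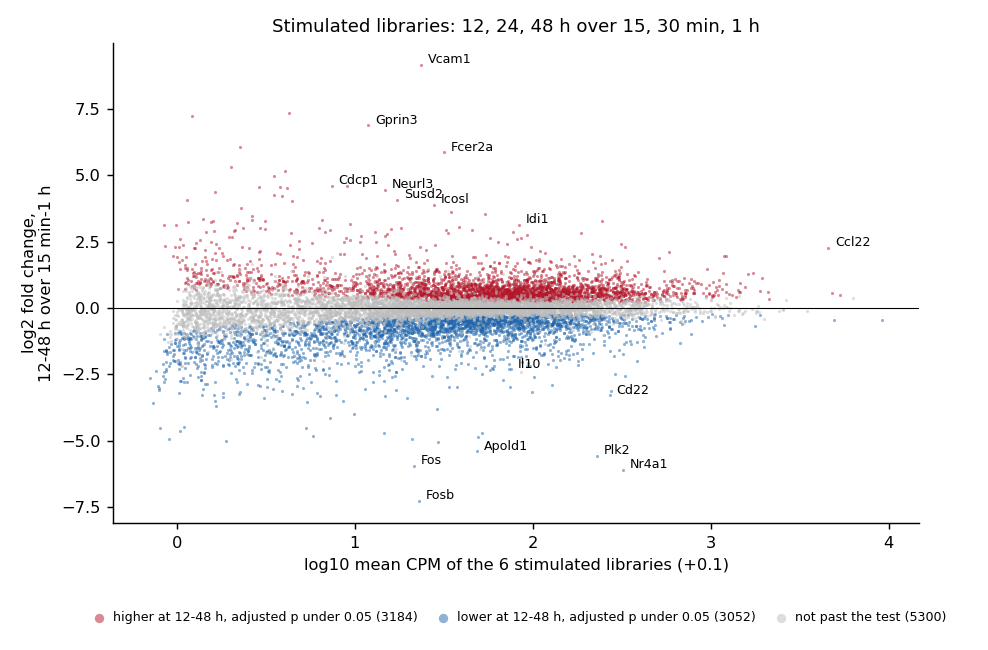
Each point is 1 of 11536 genes, with the log10 of its mean CPM over the 6 stimulated libraries on the x axis and its log2 fold change, 12 to 48 h over 15 min to 1 h, on the y axis. Red points rose (3184), blue points fell (3052) and grey points did not pass the test (5300). Vcam1 lies highest among the labelled genes and Fosb lowest.

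The times 2, 3 and 6 h entered neither group and show how far the change had gone by then. Genes that rose over 2-fold had covered a median of 31.8% of their change at 2 h, 51.9% at 3 h and 93.4% at 6 h. Genes that fell over 2-fold had covered 30.9%, 54.9% and 87.8% at those times. These are medians, and single lists differed. The hypoxia response list stood at 0.15 at 6 h and 1.38 at 48 h, and the glycolysis list at 0.51 at 6 h and 1.03 at 24 h, as median log2 levels relative to the early mean. Of all genes that rose, 43.1% stood highest at 12 h, 41.2% at 24 h and 15.7% at 48 h. Of those that fell, 31.2% stood lowest at 12 h, 46.5% at 24 h and 22.3% at 48 h. The median of the over 2-fold genes that fell was −1.45, −1.53 and −1.07 at 12, 24 and 48 h, on the log2 scale relative to the early mean, and that of the genes that rose was 1.25, 1.30 and 1.15.

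The largest rises and falls were taken among genes that passed the test and averaged at least 5 CPM over the 6 libraries. The choice also required that late and early values did not overlap. Vcam1, Gprin3, Rp1l1 and Cdcp1 stood below 1 CPM in every early library, and Fosb, Fos, Ffar1 and Prox1 in every late one. These genes met the 1 CPM filter of the test through 1 group alone. Vcam1, an adhesion molecule that binds integrins (chr3:116109949-116129688, minus strand, GRCm38), stood at 40.5, 65.4 and 34.4 CPM at 12, 24 and 48 h, against 0, 0.0407 and 0.211 CPM at 15 min, 30 min and 1 h. It was near absent in the first hour, with 13 counts in the 3 early libraries together, against 6528 in the late ones. Its fitted log2 fold change was 9.17 ± 0.62 (edgeR adjusted p = 0.00015), a size that rests on those few early counts. Vcam1 is also among the 14 macrophage markers above and enters their late sum. The part of such cells in its change was not tested. Gprin3, a gene of the G protein-regulated neurite outgrowth family (chr6:59347226-59426294, minus strand), had 16.3, 18.6 and 35.5 CPM at 12, 24 and 48 h, against 0.237, 0.203 and 0.153 CPM at 15 min, 30 min and 1 h. Its 48 h library was the highest (6.87 ± 0.42, adjusted p = 0.0001). Fcer2a, which encodes CD23, the low-affinity IgE receptor and a classical IL-4 target (chr8:3681737-3694175, minus strand), had 7.504, 25.0 and 154 CPM at 12, 24 and 48 h, against 0.915, 0.915 and 1.42 CPM at 15 min, 30 min and 1 h. Its late values were far apart, lowest at 12 h and highest at 48 h. The change of 5.86 ± 1.15 had the largest standard error of these genes, and under limma-voom it did not pass (4.92, adjusted p = 0.061).

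Other rises also differed in how far apart the late libraries stood. Neurl3, a ubiquitin ligase, reached 9.14, 23.5 and 51.3 CPM late, against 1.25, 1.24 and 1.38 CPM early, and Cdcp1, a transmembrane glycoprotein with CUB domains, 3.93, 9.42 and 28.7 CPM late, against 0.631, 0.631 and 0.499 CPM early (4.45 ± 0.62 and 4.58 ± 0.74 on the log2 scale). Icosl, the ligand of the T cell costimulator ICOS, had 32.1, 44.2 and 78.6 CPM late, against 3.91, 3.34 and 3.38 CPM early. These 3 genes stood highest at 48 h and lowest of the late libraries at 12 h. By contrast, Gpr15, a chemoattractant receptor known for lymphocyte homing to the colon (chr16:58717433-58719070, minus strand), was flat within each group, at 60.03, 67.01 and 63.9 CPM late, against 4.796, 4.98 and 5.79 CPM early. Its change of 3.63 ± 0.12 had the smallest error of the largest rises (adjusted p = 3.8e-05). Susd2, a membrane protein with a sushi domain, had 34.8, 33.99 and 27.7 CPM late, against 2.19, 1.77 and 1.78 CPM early (4.07 ± 0.16). Ifnlr1, a subunit of the interferon lambda receptor, was as flat, with 11.8, 12.2 and 10.95 CPM late, against 1.36, 1.18 and 1.02 CPM early (3.30 ± 0.18). Gpr56, an adhesion G protein-coupled receptor, had 69.02, 121 and 105 CPM late, against 8.61, 8.81 and 8.23 CPM early (3.54 ± 0.22). Rp1l1, known from the axoneme of photoreceptors, had 22.9, 18.6 and 10.1 CPM late, against 0.615, 0.875 and 0.652 CPM early, and it stood lowest of the late libraries at 48 h (4.60 ± 0.36).

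Of the 12 largest falls, 6 were of genes on the immediate early list, namely Fosb, Nr4a1, Fos, Nr4a3, Egr1 and Dusp5. Fosb, one of the Fos proteins of AP-1 (chr7:19302696-19310051, minus strand), stood at 0.234, 0.166 and 0.443 CPM at 12, 24 and 48 h, against 51.3, 52.01 and 32.4 CPM at 15 min, 30 min and 1 h, which is 42 counts late and 7502 counts early. The change was −7.27 ± 0.35 (adjusted p = 6.5e-05). Fos, the founder of that family, had 0.638, 0.522 and 0.848 CPM late, against 59.6, 48.2 and 18.1 CPM early (−5.94 ± 0.51), and within the first hour it stood lowest at 1 h. The orphan nuclear receptors Nr4a1 and Nr4a3 were lowest at 15 min and highest at 1 h among the early libraries. Nr4a1 had 11.01, 6.91 and 9.98 CPM late, against 384, 664 and 848 CPM early (−6.08 ± 0.36), and Nr4a3 had 1.89, 1.99 and 1.35 CPM late, against 36.3, 51.6 and 83.3 CPM early (−5.03 ± 0.36). Egr1, a zinc finger transcription factor, had 5.87, 3.09 and 0.904 CPM late, against 110.1, 114 and 59.6 CPM early (−4.86 ± 0.60), and its level still differed between the late libraries, with 48 h the lowest.

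Dusp5 and the other 6 genes are described next. Plk2, a polo-like kinase, had 6.89, 6.91 and 14.3 CPM late, against 470.0, 528 and 348 CPM early (−5.57 ± 0.36), so that each early library held over 20 times the level of each late one. Dusp5, a nuclear phosphatase of ERK, had 2.64, 3.44 and 5.22 CPM late, against 72.7, 101 and 126 CPM early, and Socs3, a feedback inhibitor of cytokine receptors, 0.8503, 1.47 and 0.848 CPM late, against 10.6, 29.6 and 43.1 CPM early (−4.71 ± 0.32 and −4.72 ± 0.56). Both were lowest at 15 min among the early libraries. Apold1, known from endothelium as an early response gene, had 2.34, 1.66 and 2.67 CPM late, against 57.8, 100.3 and 127 CPM early, and Osgin1, an oxidative stress response gene, 0.616, 0.878 and 2.34 CPM late, against 29.8, 53.8 and 37.6 CPM early. Ffar1, a receptor of free fatty acids, had 0.255, 0.261 and 0.609 CPM late, against 9.91, 11.7 and 11.4 CPM early, and Prox1, a homeobox factor known from lymphatic endothelium, 0.489, 0.142 and 0.645 CPM late, against 10.7, 10.5 and 8.96 CPM early. Both were nearly flat in the first hour (−4.83 ± 0.35 and −4.52 ± 0.43).

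**Figure D2:**
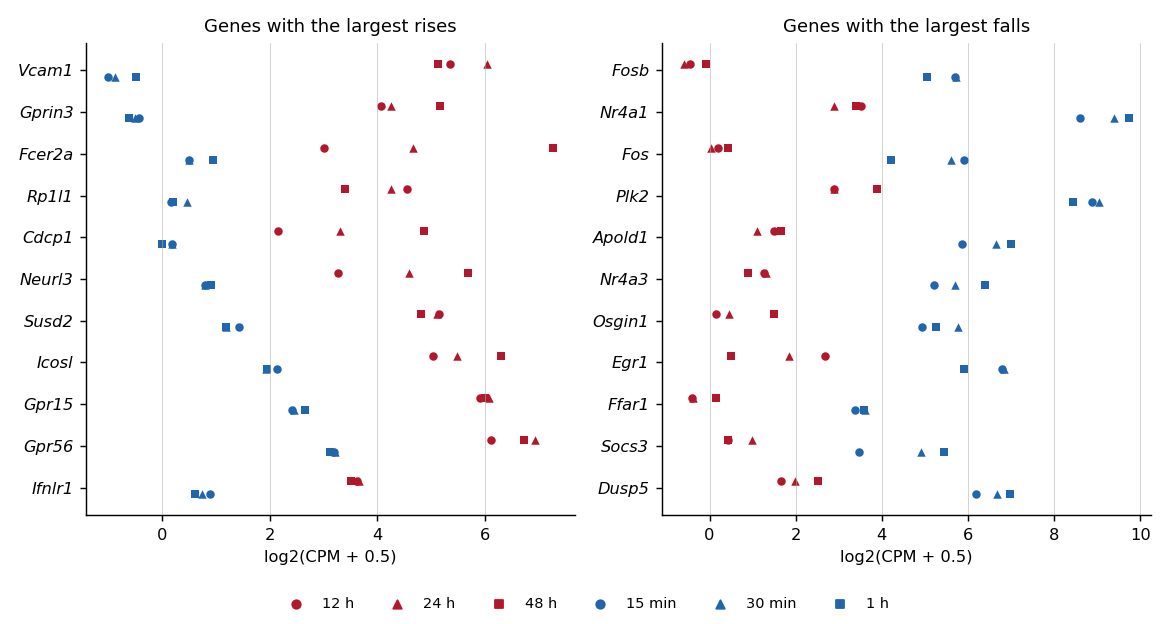
Genes with the largest rises (left) and falls (right) among genes of at least 5 CPM, with log2(CPM + 0.5) on the x axis and 1 point for each library. Late libraries (12, 24 and 48 h) are red and early ones (15 min, 30 min and 1 h) blue. In all 22 genes the late and early points do not overlap, which the choice of genes required. The late points of Fcer2a, Cdcp1 and Neurl3 spread widely while those of Gpr15 lie together.

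Over the whole list of immediate early and AP-1 genes, 20 of 27 tested members fell and 0 rose, with a median of −2.22 on the log2 scale (−2.45 within lane 2 and −1.98 within lane 4). Fosl2, another AP-1 subunit, had the smallest p of the list, at 4.04, 3.77 and 3.82 CPM late, against 44.6, 55.98 and 60.3 CPM early (−3.78 ± 0.15). Ier2, an immediate early nuclear protein, had 29.2, 30.98 and 26.2 CPM late, against 141, 212 and 170.2 CPM early (−2.59 ± 0.17). The exceptions included Myc, at 458, 505 and 723 CPM late, against 553, 658 and 1196 CPM early (−0.51 ± 0.30, adjusted p = 0.19), whose early values were lowest at 15 min and highest at 1 h. Egr2, a relative of Egr1, had 25.2, 23.5 and 4.57 CPM late, against 34.1, 38.9 and 28.2 CPM early and did not pass either. Both were chosen after their values were seen.

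Promoters of Btg2, an antiproliferative adaptor of mRNA deadenylation, and of Dusp1, a phosphatase of MAP kinases, are shown because they are the members with the smallest p whose promoter holds the cyclic AMP response element TGACGTCA, written in capitals below. The sequences are RefSeq promoters of GRCm38.p6, from 250 bases before to 50 bases after the start of the gene, read 5′ to 3′ on the strand of the gene.
Btg2, chr1:134079106-134079405, minus strand: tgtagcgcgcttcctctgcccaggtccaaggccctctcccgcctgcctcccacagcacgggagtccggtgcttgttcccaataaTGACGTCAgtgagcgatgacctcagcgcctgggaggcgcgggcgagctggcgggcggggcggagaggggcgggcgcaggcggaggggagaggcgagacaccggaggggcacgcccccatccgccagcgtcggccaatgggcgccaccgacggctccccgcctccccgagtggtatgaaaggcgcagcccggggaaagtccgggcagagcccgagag
Dusp1, chr17:26508423-26508722, minus strand: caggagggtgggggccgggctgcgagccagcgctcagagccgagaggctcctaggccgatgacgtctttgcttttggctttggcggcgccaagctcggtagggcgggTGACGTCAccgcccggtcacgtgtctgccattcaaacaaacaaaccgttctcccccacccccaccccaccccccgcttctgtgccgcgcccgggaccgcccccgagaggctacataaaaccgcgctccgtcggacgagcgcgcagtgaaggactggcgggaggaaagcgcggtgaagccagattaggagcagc
The element was found on either strand in 3 of the 23 members of the list that had a promoter sequence, and in 2.03% of 27025 genes with such a sequence. Here and below a gene counts if any of its promoters holds the letters. Btg2 had 26.6, 14.8 and 18.02 CPM late, against 168, 204 and 164 CPM early (−3.17 ± 0.22), and Dusp1 had 4.46, 4.15 and 6.69 CPM late, against 19.6, 25.4 and 26.8 CPM early (−2.22 ± 0.23).

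The NF-kB and LPS response list moved in both directions, with 15 of 37 members that rose, 8 that fell and a median of 0.28 (0.05 within lane 2 and 0.41 within lane 4). Among the subunits, Nfkb2, the precursor of p52 in the non-canonical branch, rose with 241, 242 and 249 CPM late, against 68.3, 75.7 and 86.3 CPM early (1.67 ± 0.11, adjusted p = 0.00011), and its groups were each nearly flat. Rel, the subunit c-Rel, fell with 105, 109 and 92.6 CPM late, against 213, 303 and 486 CPM early (−1.70 ± 0.28), and its early values were lowest at 15 min and highest at 1 h. Tlr4, the receptor of LPS itself, fell with 4.91, 3.58 and 3.65 CPM late, against 28.7, 21.8 and 18.9 CPM early (−2.50 ± 0.20). Members that rose included Cd40, a receptor of T cell help, with 175, 203 and 109 CPM late, against 43.9, 42.7 and 52.03 CPM early (1.82 ± 0.22), Sod2, a mitochondrial superoxide dismutase (0.95 ± 0.12), and Cflar, an inhibitor of caspase 8 (1.21 ± 0.16). The inhibitor genes Nfkbia and Tnfaip3, chosen after their values were seen, did not pass. Their 1 h libraries, at 571 and 412 CPM, stood above all late ones, while 15 min and 30 min stood below all of them. The count of members that rose was 9 without the 15 min and 9 without the 30 min library.

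In the IL-4 and STAT6 list 8 members rose and 6 fell of 20 (median 0.14, 0.09 within lane 2 and 0.23 within lane 4). That is 40% and 30%, beside 27.6% and 26.5% of all genes tested. Ccl22, a chemokine that attracts CCR4-bearing T cells, had 7499.5, 8444 and 6786 CPM at 12, 24 and 48 h, against 1368, 1387 and 2007 CPM at 15 min, 30 min and 1 h (2.26 ± 0.18, adjusted p = 0.00022). Per kilobase of its exons it averaged 3259 CPM late and 683 CPM early, while Eef1a1, a translation elongation factor, averaged 3098 CPM late and 4252 CPM early on the same scale. Ccl22 is also 1 of the 11 dendritic cell markers, and the others summed to at most 150 CPM late and 99.2 CPM early. Ciita, the master regulator of MHC class II genes, had 419, 556 and 594 CPM late, against 169.8, 158 and 136 CPM early (1.77 ± 0.16), with no overlap. Batf, an AP-1 family factor needed for class switching, had 103, 127 and 133 CPM late, against 82.1, 74.3 and 78.7 CPM early (0.64 ± 0.12). Of the members that fell, Nfil3, a basic leucine zipper factor, had 55.02, 63.4 and 78.8 CPM late, against 134, 153 and 186 CPM early (−1.25 ± 0.17). The transcript of the receptor chain Il4ra and that of Stat6, named here after their values were seen, moved little, by −0.30 ± 0.10 and 0.07 ± 0.07, and of these only Il4ra passed the test (adjusted p = 0.034 and 0.42).

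TGFb and SMAD genes showed 4 members that rose and 7 that fell of 20 (median −0.31, −0.52 within lane 2 and −0.25 within lane 4). That is 20% and 35%, beside 27.6% and 26.5% of all genes tested. Among the signal carriers, Smad3 fell with 7.38, 9.59 and 16.97 CPM late, against 35.2, 35.2 and 44.5 CPM early (−1.75 ± 0.30), and its late values were lowest at 12 h and highest at 48 h. Tgif1, a corepressor of SMAD proteins, fell with 74.6, 58.3 and 59.99 CPM late, against 179.8, 243 and 285 CPM early (−1.87 ± 0.18). Of the Runx factors, which act with SMAD proteins at the IgA switch promoter, Runx1 fell with 10.9, 9.45 and 16.3 CPM late, against 41.9, 37.1 and 34.7 CPM early (−1.62 ± 0.21). Runx2 fell by a smaller amount (−0.84 ± 0.11), and Runx3 and Cbfb, also on the list, are not described here. Members that rose included Gpr15, described above (3.63 ± 0.12). Id3, an inhibitor of E proteins, rose with 22.5, 23.8 and 22.5 CPM late, against 13.2, 12.2 and 13.2 CPM early (0.84 ± 0.10). Without the 48 h library 7 members rose.

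**Figure D3:**
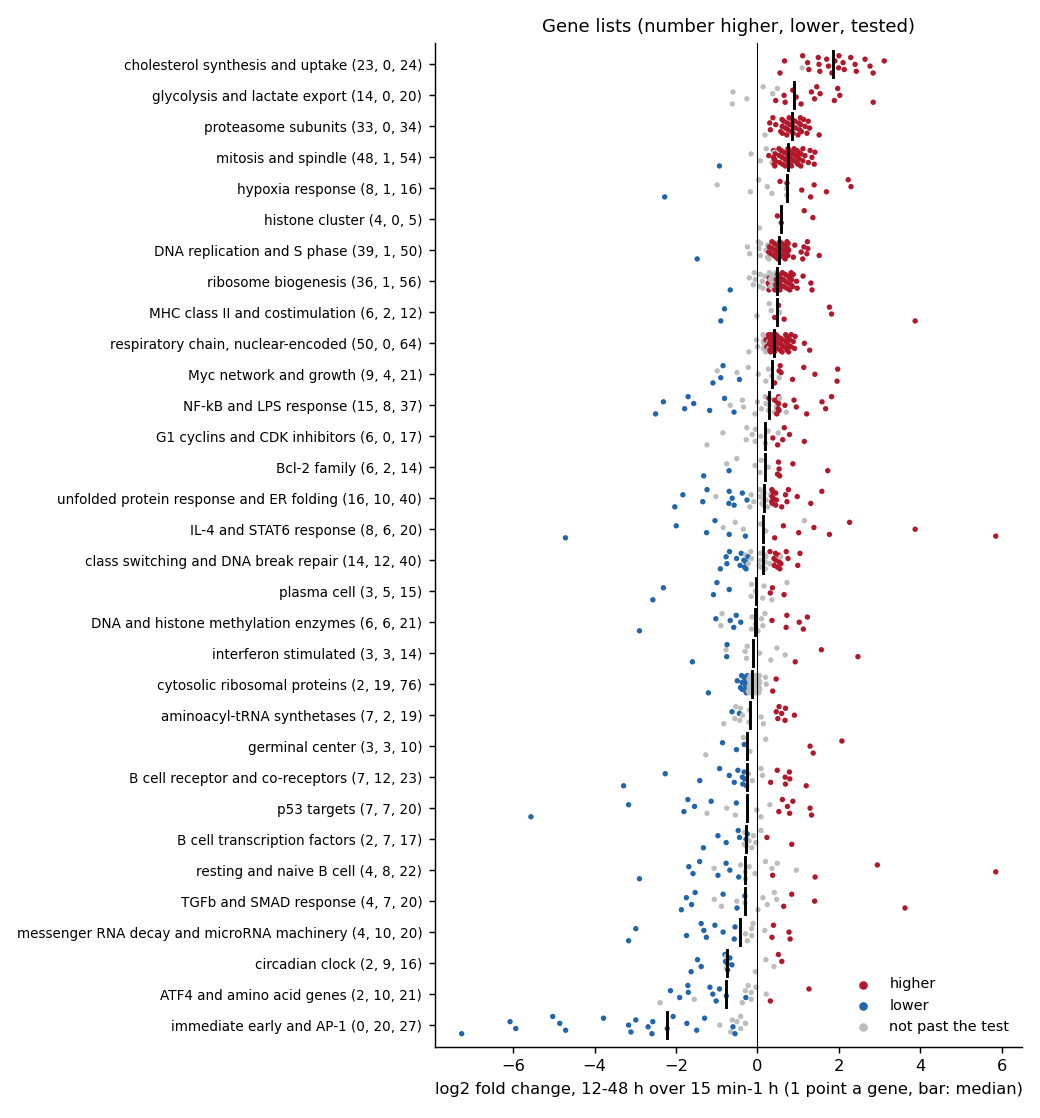
Each row is 1 of 32 gene lists, each point a member with its log2 fold change, 12 to 48 h over 15 min to 1 h, on the x axis, and each black bar the median. Numbers in brackets give the members that rose, that fell and that were tested. The medians run from 1.87 for cholesterol synthesis at the top to −2.22 for immediate early genes at the bottom.

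Cell cycle genes rose broadly and by modest amounts. In the mitosis and spindle list 48 of 54 members rose and 1 fell, with a median of 0.76 (0.79 within lane 2 and 0.64 within lane 4). Kif22, a chromosome-binding kinesin, had 138, 131 and 104 CPM at 12, 24 and 48 h, against 47.4, 47.4 and 45.9 CPM at 15 min, 30 min and 1 h (1.41 ± 0.12, adjusted p = 0.00024). Kif2c, a microtubule depolymerase at kinetochores, had 111, 91.5 and 83.7 CPM late, against 40.3, 37.1 and 31.8 CPM early, and Cdc20, an activator of the anaphase-promoting complex, 225, 202 and 161 CPM late, against 83.2, 79.1 and 78.6 CPM early. Both stood highest at 12 h, with no overlap between groups (1.40 ± 0.13 and 1.29 ± 0.12). Hmmr, a spindle-associated protein, was flat late, with 324, 322 and 329 CPM late, against 180.2, 160.3 and 141 CPM early (1.03 ± 0.10). The member that fell was Cdca5, which encodes the cohesion factor sororin, with 72.1, 76.8 and 69.9 CPM late, against 141, 137 and 143 CPM early (−0.94 ± 0.08). Mki67, the proliferation marker Ki-67, chosen after its values were seen, had 1006, 822 and 727 CPM late, against 822, 785 and 839 CPM early and did not pass (0.07 ± 0.12).

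In the DNA replication list 39 of 50 members rose and 1 fell (median 0.54, 0.57 within lane 2 and 0.30 within lane 4). Pole2, a subunit of DNA polymerase epsilon, had 38.1, 38.3 and 35.4 CPM at 12, 24 and 48 h, against 17.02, 17.02 and 19.3 CPM at 15 min, 30 min and 1 h (1.07 ± 0.10, adjusted p = 0.00034). Its catalytic partner Pole moved by 0.70 ± 0.08. Ccne1, the cyclin of the G1 to S transition, had 91.7, 119 and 98.3 CPM late, against 46.5, 46.3 and 47.98 CPM early, and Tyms, thymidylate synthase, 147, 157 and 112 CPM late, against 61.3, 57.2 and 62.4 CPM early, the first highest at 24 h and the second lowest of the late libraries at 48 h (1.14 ± 0.11 and 1.21 ± 0.13). The exception was E2f2, a factor of the E2F family that regulates these genes, with 21.2, 18.6 and 19.8 CPM late, against 55.8, 58.3 and 53.3 CPM early (−1.48 ± 0.09). The count that rose was 25 without the 30 min library. Among G1 cyclins and CDK inhibitors 6 of 17 rose and 0 fell (median 0.19, 0.25 and 0.12 within lanes 2 and 4), among them Ccnd3, with 57.5, 69.4 and 64.3 CPM late, against 37.96, 37.4 and 36.2 CPM early (0.79 ± 0.10), and Ccnd2, with 119, 165 and 178 CPM late, against 65.5, 68.5 and 75.3 CPM early (1.15 ± 0.16), both D-type cyclins. Their partner Cdk6 moved by 0.50 ± 0.12 and E2f4, an E2F factor bound by pocket proteins, by 0.66 ± 0.16. Without the 48 h library 4 members of this list fell.

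The promoters of Pole2 and Kif22 are shown with the elements that are known from genes of their phases. In the first, capitals mark the E2F-type element, searched as TTTCGCGC or TTTGGCGC, and in the second the cell cycle homology element TTTGAA, both on either strand, so that a match may read as the reverse complement.
Pole2, chr12:69228141-69228440, minus strand: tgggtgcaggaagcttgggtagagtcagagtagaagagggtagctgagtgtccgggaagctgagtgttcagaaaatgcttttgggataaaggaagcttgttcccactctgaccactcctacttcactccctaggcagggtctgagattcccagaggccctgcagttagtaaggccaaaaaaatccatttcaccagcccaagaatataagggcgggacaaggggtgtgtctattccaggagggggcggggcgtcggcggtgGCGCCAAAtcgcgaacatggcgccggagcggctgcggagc
Kif22, chr7:127042371-127042670, minus strand: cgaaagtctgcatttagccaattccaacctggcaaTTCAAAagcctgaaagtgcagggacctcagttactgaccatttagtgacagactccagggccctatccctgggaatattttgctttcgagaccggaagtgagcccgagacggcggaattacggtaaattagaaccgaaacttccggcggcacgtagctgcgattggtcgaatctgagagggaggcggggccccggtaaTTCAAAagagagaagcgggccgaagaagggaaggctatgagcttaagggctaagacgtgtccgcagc
E2F-type letters were found in 13 of 41 genes of the replication list with a promoter sequence and in 0.929% of 27025 genes with one. The cell cycle homology letters were found in 33 of 45 such genes of the mitosis list and in 20.2% of the 27025.

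Class switching and DNA break repair genes went both ways by small amounts, 14 that rose and 12 that fell of 40, none of which fell over 2-fold (median 0.13, 0.08 within lane 2 and 0.11 within lane 4). These shares, 35% and 30%, lay near the 27.6% and 26.5% of all genes tested, so the counts do not set the list apart. In base excision repair, Apex2, an AP endonuclease, rose with 21.7, 21.2 and 16.1 CPM late, against 8.64, 9.01 and 11.1 CPM early (1.04 ± 0.17), while Xrcc1, the scaffold of single-strand break repair, fell with 114, 94.9 and 121 CPM late, against 205, 209 and 209.6 CPM early (−0.91 ± 0.10, adjusted p = 0.00059). Ung, the uracil glycosylase of the switch reaction and named after its values were seen, had 72.1, 70.5 and 59.9 CPM late, against 83.9, 83.6 and 89.04 CPM early (−0.33 ± 0.09). Among ligases, Lig1, the replicative ligase, and Lig3, the partner of Xrcc1, rose by 0.75 ± 0.09 and 0.52 ± 0.09. In end joining, Xrcc5, which encodes Ku80, fell with 76.6, 82.5 and 76.5 CPM late, against 111, 105 and 103 CPM early (−0.43 ± 0.08), and Parp3, a poly(ADP-ribose) polymerase at breaks, rose with 21.4, 21.4 and 26.9 CPM late, against 10.5, 12.4 and 12.4 CPM early (0.99 ± 0.14). Numbers in this list depended on single libraries. Members that rose were 9 without 15 min and 7 without 30 min, and members that fell were 6 without 24 h, 4 without 30 min and 7 without 1 h.

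Genes of cholesterol synthesis and uptake showed the largest median rise of the 32 lists, 1.87 on the log2 scale, with 23 of 24 members that rose and 0 that fell (1.57 within lane 2 and 1.96 within lane 4). Idi1, an isomerase of the isoprenoid branch (chr13:8885501-8892451, plus strand), had 122, 177 and 149.9 CPM at 12, 24 and 48 h, against 16.2, 16.2 and 19.7 CPM at 15 min, 30 min and 1 h (3.12 ± 0.17, adjusted p = 7e-05). Acat2, which makes acetoacetyl-CoA, had 121, 172 and 151 CPM late, against 24.2, 23.8 and 23.4 CPM early, and Fdps, farnesyl diphosphate synthase, 126, 173 and 183 CPM late, against 23.3, 23.5 and 24.6 CPM early, with no overlap in either (2.64 ± 0.14 and 2.77 ± 0.16). Insig1, the retention protein of the SREBP pathway and the 1 member that did not pass, had 57.01, 244 and 196 CPM late, against 53.01, 73.8 and 107 CPM early. The list stood highest at 24 h, with medians of 1.08, 2.25 and 1.95 at 12, 24 and 48 h relative to the early mean, and its 12 h value was below its 6 h value of 1.68.

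Promoters of Idi1 and Lss, the enzyme that closes the ring system as lanosterol synthase, are shown with the CCAAT box in capitals, which here reads ATTGG since it lies on the reverse strand.
Idi1, chr13:8885356-8885655, plus strand: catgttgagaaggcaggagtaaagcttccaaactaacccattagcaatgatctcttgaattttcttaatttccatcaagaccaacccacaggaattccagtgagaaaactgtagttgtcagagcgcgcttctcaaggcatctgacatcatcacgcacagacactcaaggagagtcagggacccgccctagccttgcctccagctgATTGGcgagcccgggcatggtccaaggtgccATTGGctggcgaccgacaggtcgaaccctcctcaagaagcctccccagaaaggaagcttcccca
Lss, chr10:76531355-76531654, plus strand: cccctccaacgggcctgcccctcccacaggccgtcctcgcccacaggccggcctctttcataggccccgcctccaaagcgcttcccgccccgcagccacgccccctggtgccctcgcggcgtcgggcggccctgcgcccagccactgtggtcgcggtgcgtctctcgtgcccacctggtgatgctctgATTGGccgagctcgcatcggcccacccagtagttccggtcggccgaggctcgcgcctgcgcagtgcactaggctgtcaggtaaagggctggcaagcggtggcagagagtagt
A CCAAT box on either strand was found in 16 of the 17 members of the list that had a promoter sequence, and in 41.1% of 27025 genes with one. Lss had 82.03, 145 and 134 CPM late, against 24.5, 22.6 and 20.4 CPM early (2.43 ± 0.22).

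Genes of energy metabolism rose as well. In the glycolysis and lactate export list 14 of 20 members rose and 0 fell (median 0.91, 0.75 within lane 2 and 1.01 within lane 4). Ldha, lactate dehydrogenase A, had 1551, 2429 and 1864 CPM at 12, 24 and 48 h, against 463, 487 and 551 CPM at 15 min, 30 min and 1 h (1.97 ± 0.18, adjusted p = 0.00032). Pfkl, a phosphofructokinase, had 249, 414 and 371 CPM late, against 85.3, 84.5 and 86.3 CPM early, Tpi1, triose phosphate isomerase, 584, 991 and 852 CPM late, against 217, 220.4 and 223 CPM early, and Eno1, an enolase, 629.7, 916 and 820.1 CPM late, against 282, 297 and 322 CPM early. All 4 were highest at 24 h. The glucose transporters Slc2a1 and Slc2a3, chosen after their values were seen, did not pass (−0.26 ± 0.25 and −0.60 ± 0.25). Without the 48 h library 2 members of the list fell. Nuclear-encoded respiratory chain genes rose in 50 of 64 (median 0.41, 0.44 and 0.36 within lanes 2 and 4), among them Cycs, cytochrome c, with 152, 165 and 113 CPM late, against 58.3, 59.8 and 59.4 CPM early (1.28 ± 0.14), and Uqcrh, of complex III, with 119.6, 152 and 123 CPM late, against 60.5, 55.2 and 62.7 CPM early (1.15 ± 0.12).

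The hypoxia response list climbed through the late group, with medians of 0.14, 0.47 and 1.38 at 12, 24 and 48 h relative to the early mean. In the test 8 of 16 members rose and 1 fell (median 0.72, 0.27 within lane 2, which holds no 48 h library, and 1.41 within lane 4). Bnip3, a mitophagy receptor, had 20.5, 42.8 and 51.5 CPM late, against 9.01, 6.67 and 7.84 CPM early (2.30 ± 0.33). Higd1a, a mitochondrial protein of the hypoxia response, had 37.8, 51.04 and 50.1 CPM late, against 16.5, 17.9 and 18.8 CPM early (1.39 ± 0.14), and Ankrd37 had 4.59, 7.98 and 11.03 CPM late, against 1.51, 1.79 and 1.76 CPM early (2.23 ± 0.33). Kdm3a, an oxygen-dependent histone demethylase, rose by 0.72 ± 0.11. Vegfa, the vascular growth factor, fell with 7.08, 12.5 and 55.2 CPM late, against 116, 131 and 120.2 CPM early (−2.28 ± 0.68, adjusted p = 0.024), and its 48 h library was the highest of the late ones. The number that rose was 5 without any 1 of the 24 h, 15 min, 30 min and 1 h libraries, the call for Vegfa was lost without 24 h, 30 min or 1 h, and 3 members fell without 48 h.

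Ribosome biogenesis genes rose in 36 of 56 and 1 fell (median 0.48, 0.55 within lane 2 and 0.22 within lane 4). Noc4l, a nucleolar assembly factor, had 127, 131 and 96.05 CPM late, against 41.8, 46.2 and 52.5 CPM early (1.34 ± 0.15), and Bop1, of the large subunit pathway, 232, 255 and 155 CPM late, against 78.8, 80.9 and 100.2 CPM early (1.31 ± 0.19). Nhp2 and Polr1e, of the small nucleolar particles and of RNA polymerase I, rose by 0.88 ± 0.12 and 0.72 ± 0.10. Odc1, the rate-limiting enzyme of polyamine synthesis, fell with 1650.1, 1299 and 1138 CPM late, against 2011, 2112 and 2403 CPM early (−0.67 ± 0.15). The count that rose was 20 without 24 h, 21 without 15 min and 22 without 30 min. Cytosolic ribosomal proteins gave 2 that rose and 19 that fell of 76 (median −0.13, −0.09 and −0.19 within lanes 2 and 4), for example Rpl17 with 638, 600.0 and 632 CPM late, against 932, 863 and 859 CPM early (−0.50 ± 0.08). That count of falls was 8 without 24 h, 7 without 15 min, 7 without 30 min and 55 with library totals as the scaling. Rpl10a, which had the largest log2 change (−1.21 ± 0.25), has near-identical pseudogene copies as many ribosomal protein genes do, so counts of this family are uncertain.

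In the proteasome list 33 of 34 members rose, with a median of 0.84 (0.87 within lane 2 and 0.61 within lane 4). Psmb3, of the core particle, had 123, 136 and 110.4 CPM at 12, 24 and 48 h, against 61.2, 57.6 and 59.8 CPM at 15 min, 30 min and 1 h (1.06 ± 0.10, adjusted p = 0.00035), and Psmd13, of the regulatory particle, 158, 188 and 128 CPM late, against 53.7, 54.5 and 58.4 CPM early (1.52 ± 0.14). Psmb7 and Psmd2 rose by 1.06 ± 0.11 and 1.08 ± 0.12. In these 4 genes 48 h was the lowest late library and still above every early one.

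Unfolded protein response and endoplasmic reticulum (ER) folding genes moved in both directions, 16 that rose and 10 that fell of 40 (median 0.16, 0.14 and 0.16 within lanes 2 and 4). That is 40% and 25%, beside 27.6% and 26.5% of all genes tested. Calr, the lectin chaperone calreticulin, rose with 1880.3, 1695 and 1392 CPM late, against 649.7, 648 and 716 CPM early (1.31 ± 0.12). Sdf2l1, a chaperone-associated ER protein, had 105, 106 and 108 CPM late, against 37.6, 32.4 and 36.98 CPM early (1.58 ± 0.09), and the disulfide isomerases Pdia6 and Pdia3 rose by 0.69 ± 0.08 and 0.98 ± 0.12. Of the members that fell, Sel1l, of the ER degradation machinery, had 223, 215 and 299 CPM late, against 604, 569.9 and 576 CPM early (−1.24 ± 0.14), and Ppp1r15a, the phosphatase subunit GADD34, 24.6, 37.1 and 46.05 CPM late, against 109.8, 144 and 133 CPM early (−1.83 ± 0.23). The count that rose was 10 without the 30 min library. The Calr promoter is shown with the ER stress element in capitals, searched as CCAAT, then any 9 bases, then CCACG, and here on the reverse strand.
Calr, chr8:84846882-84847181, minus strand: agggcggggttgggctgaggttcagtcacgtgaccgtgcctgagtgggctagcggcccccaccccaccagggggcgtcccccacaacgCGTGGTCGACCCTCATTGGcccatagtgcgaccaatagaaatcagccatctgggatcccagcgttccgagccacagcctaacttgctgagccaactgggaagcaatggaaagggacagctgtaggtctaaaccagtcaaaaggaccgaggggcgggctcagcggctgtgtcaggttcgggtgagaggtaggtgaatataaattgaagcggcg
These letters were found on either strand in 8 of the 32 members with a promoter sequence and in 0.137% of 27025 genes with one.

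Amino acid genes under the transcription factor ATF4 stood lower at 12 and 24 h than at 48 h, with medians of −0.98, −0.86 and −0.31 at 12, 24 and 48 h relative to the early mean. In the test 2 of 21 rose and 10 fell (median −0.77, −0.92 within lane 2 and −0.32 within lane 4). Atf5, a relative of ATF4, was flat in each group, with 60.5, 49.8 and 52.4 CPM late, against 183, 174 and 174 CPM early (−1.70 ± 0.09, adjusted p = 7e-05). Pycr1, of proline synthesis, had 30.9, 15.5 and 35.5 CPM late, against 103, 105 and 101 CPM early (−1.91 ± 0.27), and Slc7a5, a transporter of large amino acids, 288, 312 and 397 CPM late, against 575, 561 and 569 CPM early (−0.77 ± 0.13). Cebpg, a partner of ATF4, changed by −1.17 ± 0.16 on the log2 scale, while Shmt1, of one-carbon metabolism, rose with 239.9, 217 and 151 CPM late, against 81.8, 83.4 and 88.6 CPM early (1.27 ± 0.16). Without the 48 h library 17 members fell, and without 15 min or 30 min 1 rose. Aminoacyl-tRNA synthetases held 7 that rose and 2 that fell of 19 (median −0.19, −0.25 and −0.01 within lanes 2 and 4), with Rars, the arginyl enzyme, at 415, 367 and 369.6 CPM late, against 243, 234 and 241 CPM early (0.69 ± 0.08) and Yars, the tyrosyl enzyme, at 26.7, 31.1 and 42.7 CPM late, against 51.6, 50.9 and 53.7 CPM early (−0.63 ± 0.17, a call lost without 24 h). Here 10 fell without 48 h and 0 without 24 h.

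**Figure D4:**
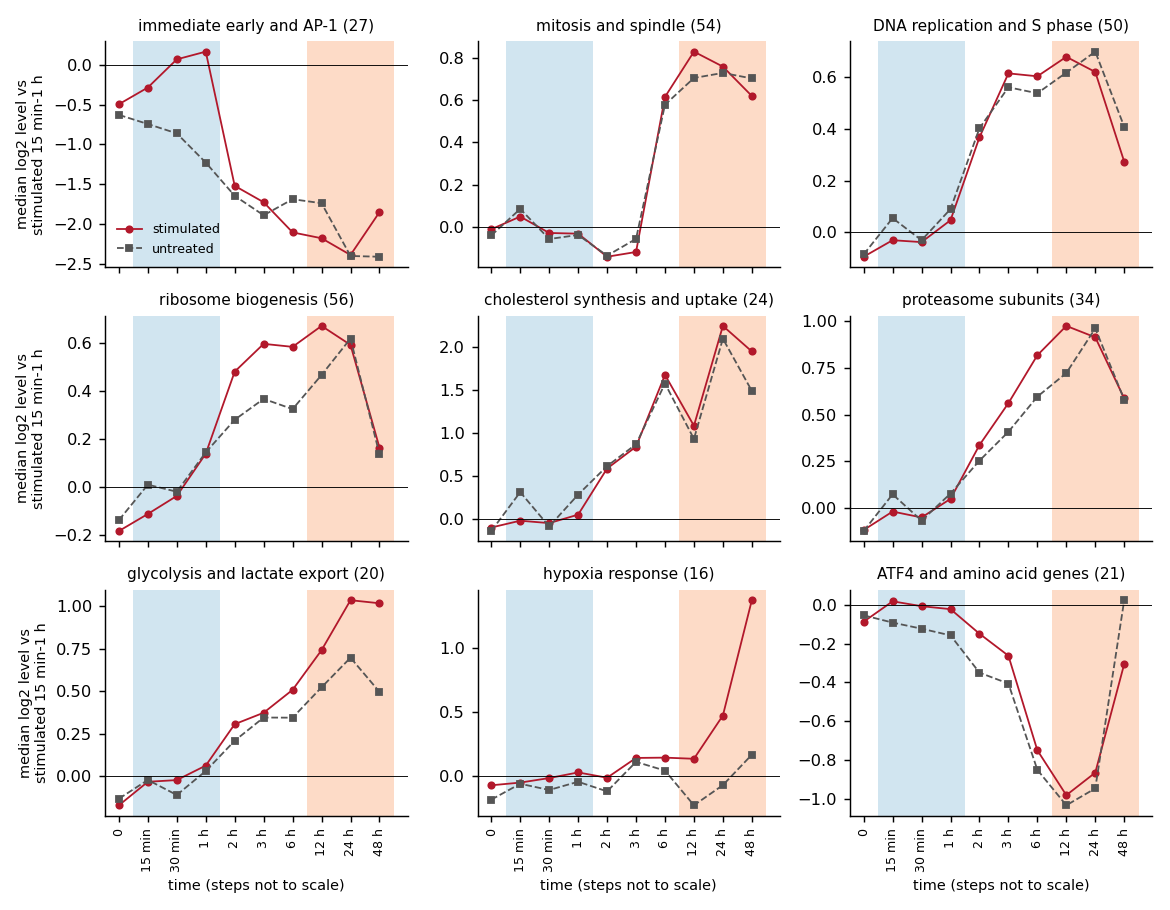
Median log2 level of 9 gene lists (number of genes in brackets) at the 10 times, relative to the mean of the stimulated 15 min to 1 h libraries, in stimulated (red, solid) and untreated libraries (grey, dashed). The early times are shaded blue and the late ones orange, and the steps between times are not to scale. The mitosis list steps up between 3 and 6 h in both arms, the hypoxia list climbs to 1.38 at 48 h in stimulated libraries and 0.17 in untreated ones, and the ATF4 list is lowest at 12 h in both and stands at −0.31 at 48 h in stimulated libraries and 0.02 in untreated ones.

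B cell receptor and co-receptor genes fell more often than they rose, 12 against 7 of 23 (median −0.27, −0.28 within lane 2 and −0.24 within lane 4). In bulk libraries fewer cells of a type and less RNA per cell cannot be told apart. Cd22, an inhibitory co-receptor, had 38.1, 30.3 and 80.9 CPM at 12, 24 and 48 h, against 469, 499 and 500.0 CPM at 15 min, 30 min and 1 h (−3.29 ± 0.36, adjusted p = 0.00052), with no overlap and 48 h the highest of the late libraries. Bank1, an adaptor, had 16.2, 13.7 and 18.6 CPM late, against 79.1, 75.5 and 79.9 CPM early (−2.27 ± 0.12), and Lyn, a Src family kinase of the receptor, 40.5, 45.5 and 54.6 CPM late, against 118, 124 and 136 CPM early (−1.42 ± 0.13). Syk, the kinase that follows it, had 188, 226 and 180.1 CPM late, against 395, 375 and 371 CPM early (−0.93 ± 0.11). On the other side, Ptpn6, the phosphatase SHP-1, rose with 426, 446 and 343 CPM late, against 178, 173 and 181 CPM early (1.20 ± 0.11), and Dapp1, an adaptor, with 39.99, 39.3 and 36.5 CPM late, against 23.9, 24.2 and 24.1 CPM early (0.69 ± 0.09).

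B cell transcription factors held 2 that rose and 7 that fell of 17 (median −0.27, −0.13 and −0.40 within lanes 2 and 4). Ebf1, an early B cell factor, had 78.7, 79.3 and 64.95 CPM late, against 189, 191 and 182 CPM early (−1.33 ± 0.10), and Foxo1, a forkhead factor restrained by PI3 kinase, 82.2, 80.6 and 81.5 CPM late, against 168, 157 and 156 CPM early (−0.97 ± 0.07). Late and early values overlapped in neither gene. Pou2f2 and Spi1, which encode Oct-2 and PU.1, moved by −0.44 ± 0.07 and −0.47 ± 0.12, while Pax5, the identity factor of the lineage and named after its values were seen, did not pass (−0.14 ± 0.10). The count that fell was 4 without any 1 of the 24 h, 15 min and 30 min libraries.

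Genes of resting and naive B cells gave 4 that rose and 8 that fell of 22 (median −0.30, −0.43 within lane 2 and −0.08 within lane 4). Hhex, a homeobox factor, had 12.03, 11.7 and 12.1 CPM late, against 45.3, 41.8 and 28.98 CPM early (−1.69 ± 0.17), Kdm6b, a histone H3K27 demethylase, 29.4, 26.8 and 33.8 CPM late, against 145, 198 and 333 CPM early (−2.90 ± 0.30), and Dtx1, a Notch regulator, 5.93, 7.26 and 7.78 CPM late, against 18.03, 18.9 and 19.6 CPM early (−1.42 ± 0.15). Members that rose included Tcf7 and Lef1, transcription factors of the Wnt pathway known best from T cells. Tcf7 had 74.6, 85.1 and 81.4 CPM late, against 11.5, 9.99 and 9.95 CPM early (2.95 ± 0.11, adjusted p = 3.8e-05), and Lef1 had 16.6, 14.9 and 21.8 CPM late, against 7.02, 6.895 and 6.21 CPM early (1.42 ± 0.17). T cell markers summed to 46.0 to 72.9 CPM late and 57.8 to 65.5 CPM early, with 10 of 14 below 1 CPM in every library. Of the 4 others Cd5 averaged 46.6 CPM late and 42.5 CPM early, Lck 10.2 and 8.10 CPM, Cd247 2.60 and 3.92 CPM and Cd4 1.69 and 5.03 CPM. Their part in these rises was not tested.

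Plasma cell genes gave 3 that rose and 5 that fell of 15 (median −0.05, −0.12 and −0.08 within lanes 2 and 4). That is 20% and 33.3%, beside 27.6% and 26.5% of all genes tested. Prdm1, which encodes Blimp-1, had 5.17, 3.49 and 5.75 CPM late, against 27.3, 32.8 and 26.2 CPM early (−2.57 ± 0.21), and Xbp1, the factor of the secretory programme, 149, 161 and 205 CPM late, against 281, 275 and 281 CPM early (−0.69 ± 0.13). Creb3l2, an ER-bound factor, changed by −1.08 ± 0.21 on the log2 scale. The small count that rose was 5 without 12 h, 1 without 24 h and 0 without 30 min. Germinal center genes gave 3 that rose and 3 that fell of 10 (median −0.25, −0.20 and −0.08 within lanes 2 and 4). Each count is 30%, near the shares of all genes tested. Il9r, the receptor of interleukin 9, had 88.9, 199.9 and 281 CPM late, against 47.2, 46.8 and 42.4 CPM early (2.07 ± 0.37), and Fas, the death receptor, 40.6, 48.7 and 100.1 CPM late, against 27.3, 25.3 and 25.3 CPM early (1.29 ± 0.32), both highest at 48 h. S1pr2, which confines cells to germinal centers, fell with 11.5, 11.9 and 12.7 CPM late, against 23.2, 21.6 and 21.1 CPM early (−0.86 ± 0.11), as did Rgs13, a regulator of chemokine signalling (−0.52 ± 0.12). Without the 48 h library 6 members fell.

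In the MHC class II and costimulation list 6 rose and 2 fell of 12 that could be tested out of 23 (median 0.47, 0.30 within lane 2 and 0.67 within lane 4), with Icosl, Ciita and Cd40 described above and Il2ra, the alpha chain of the interleukin 2 receptor, at 19.05, 15.1 and 21.9 CPM late, against 13.2, 11.6 and 11.03 CPM early (0.65 ± 0.16). The class II genes H2-Aa, H2-Ab1 and H2-Eb1 had at most 2, 4 and 3 counts in a library although Cd74, the invariant chain, had at least 115640, so their values are not readable as a lack of expression. Cd83 and Cd274, an activation marker and the checkpoint ligand PD-L1, changed by −0.81 ± 0.25 and −0.90 ± 0.25 on the log2 scale. Without the 30 min library 3 members rose and 1 fell, and without the 24 h library, where the calls for Cd83 and Cd274 were lost, 0 fell.

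In the Bcl-2 family 6 rose and 2 fell of 14 (median 0.18, 0.04 and 0.35 within lanes 2 and 4). Bcl2l1, which encodes the survival factor Bcl-xL, had 121, 154 and 159 CPM late, against 37.5, 32.5 and 61.9 CPM early (1.73 ± 0.24), while Mcl1, a short-lived survival factor, fell with 335, 401 and 417 CPM late, against 915, 963 and 1017 CPM early (−1.32 ± 0.11). The killers Bax and Bak1 rose by 0.87 ± 0.08 and 0.49 ± 0.11. Among p53 targets 7 rose and 7 fell of 20 (median −0.27, −0.41 within lane 2 and 0.13 within lane 4, which differ in sign), from Plk2 and Btg2, described above, to Bax, Ccng1, a cyclin G, and Trp53 itself (0.61 ± 0.10 and 0.74 ± 0.13). Each count is 35%, beside 27.6% that rose and 26.5% that fell of all genes tested. The count that fell was 4 without the 24 h library.

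Of the Myc network and growth genes 9 rose and 4 fell of 21 (median 0.35, 0.45 and 0.17 within lanes 2 and 4). Tfrc, the transferrin receptor, had 1941, 2105 and 1575 CPM late, against 463, 470.1 and 524 CPM early (1.96 ± 0.13), Cad, of pyrimidine synthesis, 491, 463 and 309.6 CPM late, against 152, 154 and 171 CPM early (1.41 ± 0.17), and Nme1, a nucleoside diphosphate kinase, 264, 301 and 211 CPM late, against 114, 116 and 124 CPM early (1.14 ± 0.14). Mxd4, a Max partner that opposes Myc, fell with 34.01, 36.8 and 36.2 CPM late, against 68.2, 62.97 and 62.3 CPM early (−0.85 ± 0.08). Genes of mRNA decay and the microRNA machinery fell in 10 and rose in 4 of 20 (median −0.42, −0.60 and −0.43 within lanes 2 and 4). Among the decay factors Zfp36, which binds AU-rich elements, had 8.67, 9.12 and 7.21 CPM late, against 60.8, 87.4 and 50.9 CPM early (−2.99 ± 0.22), and its relative Zfp36l2 53.6, 55.95 and 49.5 CPM late, against 154, 183 and 198 CPM early (−1.74 ± 0.12). In the microRNA machinery, Xpo5, the exporter of precursors, rose with 216, 207 and 172 CPM late, against 118, 116 and 115 CPM early (0.78 ± 0.10), and Ago1, an Argonaute, by 0.39 ± 0.09.

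Circadian clock genes fell in 9 and rose in 2 of 16 (median −0.74, −0.78 and −0.50 within lanes 2 and 4). Per1, a period gene, had 28.6, 34.3 and 42.9 CPM late, against 102, 118 and 109 CPM early (−1.63 ± 0.16), and Nr1d2, which encodes REV-ERB beta, 16.4, 18.02 and 22.5 CPM late, against 46.5, 49.04 and 53.7 CPM early (−1.38 ± 0.14), while Cry1, a cryptochrome, rose with 84.4, 91.4 and 80.1 CPM late, against 54.8, 52.7 and 62.4 CPM early (0.60 ± 0.10). The count that rose was 1 without any 1 of the 24 h, 30 min and 1 h libraries. Enzymes of DNA and histone methylation gave 6 that rose and 6 that fell of 21 (median −0.05, −0.05 and 0.03 within lanes 2 and 4). Each count is 28.6%, near the 27.6% and 26.5% of all genes tested. Uhrf1, which guides Dnmt1 in copying DNA methylation at replication, rose with 462, 475 and 345 CPM late, against 165, 173 and 212 CPM early (1.23 ± 0.15), and Dnmt1 itself with 566, 559.5 and 422 CPM late, against 310.1, 319 and 326 CPM early (0.70 ± 0.12). Eed and Ezh2, of the Polycomb complex PRC2, rose by 1.03 ± 0.16 and 0.72 ± 0.13, and Setd2, the H3K36 methyltransferase, fell with 219, 230.3 and 212 CPM late, against 441, 449.7 and 461 CPM early (−1.02 ± 0.08). Interferon stimulated genes gave 3 that rose and 3 that fell of 14 (median −0.10, −0.06 and 0.26 within lanes 2 and 4, which differ in sign). Each count is 21.4%, below the shares of all genes tested. Ddx58, the RNA sensor RIG-I, fell with 5.12, 5.96 and 8.35 CPM late, against 21.5, 19.7 and 18.1 CPM early (−1.60 ± 0.20). Members that fell were 5 without 48 h and 1 without 15 min or without 30 min. Of 5 histone genes that could be tested 4 rose (median 0.58, 0.52 and 0.88 within lanes 2 and 4), with H2afz, a variant histone, at 1016, 978 and 903 CPM late, against 618, 629 and 695 CPM early (0.58 ± 0.09), and the count was 2 without 30 min.

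Untreated libraries gave the background of the same times without the cocktail. To ask which of these changes differed from those in untreated libraries of the same times, the late over early change was compared between the arms with time as a factor. The arms differ by lane at every time as well as by animal. A fixed offset between the animals cancels in this difference. A course over time that differs between the animals does not cancel, and it cannot be told apart from treatment. The pairs of lanes were in part the same at early and late times, so lane offsets cancel only in part. In untreated libraries 5614 of 11596 genes passed between late and early (48.4%), 2786 that rose (24%) and 2828 that fell (24.4%), and over 2-fold 347 rose (2.99%) and 712 fell (6.14%). Genes that rose in both arms were 2169, which is 68.1% of those that rose in stimulated and 77.9% of those that rose in untreated libraries, and genes that fell in both were 2021 (66.2% and 71.5%). The difference itself passed for 2149 of 11916 genes (18%), with a more positive change in stimulated libraries for 1044 (8.76%) and a more negative one for 1105 (9.27%), over 2-fold for 315 (2.64%) and 311 (2.61%). The late ratios of stimulated to untreated libraries did not overlap the early ones for 2238 genes with late above (18.8%) and 2286 with late below (19.2%). Of the genes that rose in stimulated libraries 689 (21.6%) had such a higher difference, and of those that fell 842 (27.6%) had a lower one. The same stimulated libraries enter both tests, so these shares are not independent of the choice of genes. Genes that rose in stimulated and fell in untreated libraries were 42, and 35 did the opposite. Without the time factor 615 differences passed, and 527 with lane added to that fit. Without the 15 min, 30 min or 1 h pair 1166, 1129 and 1228 passed.

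**Figure D5:**
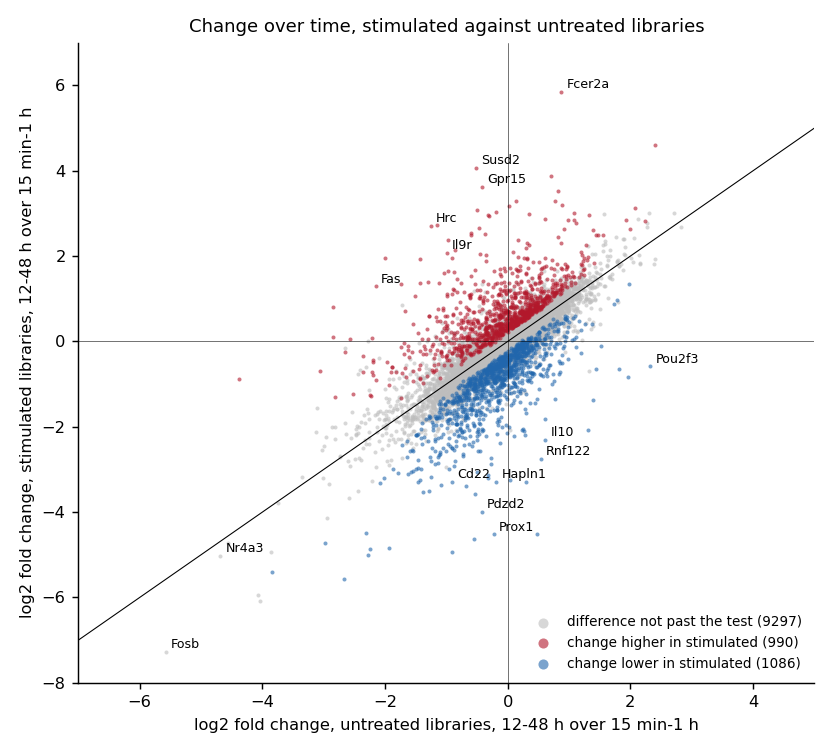
Each point is 1 of 11373 genes tested in all fits, with its late over early log2 fold change in untreated libraries on the x axis and in stimulated libraries on the y axis. Red points had a higher change in stimulated libraries (990), blue points a lower one (1086) and grey points no difference past the test (9297), and the line marks equal change. Susd2 and Gpr15 lie high at a small untreated change, Fosb and Nr4a3 lie low in both arms, and Pou2f3 lies to the right with a change only in untreated libraries.

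Several of the largest rises also differed from untreated libraries. Genes were taken that passed the test of the difference and averaged at least 5 CPM over the 12 libraries of both arms. The choice also required every late ratio of stimulated to untreated libraries to lie beyond every early one. Among these genes Gprin3, Neurl3, Susd2, Fcer2a, Gpr15 and Hrc had the 6 largest positive differences. Cdcp1 averaged 3.81 CPM over the 12 libraries and lay below the limit of 5 CPM, with a difference of 6.67 ± 0.59 (adjusted p = 0.00015). Gpr15 stood at 60.03, 67.01 and 63.9 CPM late in stimulated libraries, while untreated ones had 2.98, 3.397 and 3.59 CPM late and 4.35, 5.13 and 3.83 CPM early, a difference of 4.03 ± 0.17 (adjusted p = 2.3e-05). Susd2 had 2.53, 1.24 and 0.912 CPM late and 2.51, 2.44 and 1.67 CPM early in untreated libraries, and its difference was 4.63 ± 0.31 (adjusted p = 6.7e-05). Neurl3 had 0.858, 0.225 and 0.763 CPM late and 0.959, 0.908 and 1.13 CPM early there (4.96 ± 0.66), and Fcer2a 1.12, 1.28 and 2.49 CPM late and 0.895, 0.757 and 1.03 CPM early (4.44 ± 0.76). In Gprin3 the untreated libraries had 1.27, 0.405 and 0.186 CPM late and 0.2396, 0.397 and 0.157 CPM early, and the difference of 5.63 ± 1.08 lost its call without the 30 min pair (5.29, adjusted p = 0.054). Hrc, a calcium-binding protein known from the sarcoplasmic reticulum, had 7.36, 13.6 and 34.7 CPM late, against 2.79, 2.95 and 2.88 CPM early in stimulated libraries and 1.72, 0.607 and 1.12 CPM late and 2.64, 2.69 and 2.87 CPM early in untreated ones (3.75 ± 0.61). Vcam1 had 0.622, 0.180 and 0 CPM late and 0.03195, 0.0567 and 0.0348 CPM early in untreated libraries, and its difference did not pass (6.55 ± 2.35, adjusted p = 0.087).

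Of the 6 largest negative differences, 5 were of genes that fell in stimulated libraries. Prox1 had 0.489, 0.142 and 0.645 CPM late in stimulated libraries, while untreated ones had 6.89, 9.22 and 6.77 CPM late and 9.01, 8.57 and 9.16 CPM early (−4.26 ± 0.40, adjusted p = 0.0002). Pdzd2, a protein with PDZ domains, had 1.701, 0.688 and 1.05 CPM late, against 18.6, 19.6 and 17.1 CPM early in stimulated libraries and 14.3, 12.8 and 9.97 CPM late and 16.7, 17.4 and 15.5 CPM early in untreated ones (−3.58 ± 0.23). Rnf122, a RING ubiquitin ligase, had 1.45, 1.38 and 3.17 CPM late, against 15.3, 13.7 and 11.7 CPM early in stimulated libraries and 11.9, 22.9 and 23.6 CPM late and 15.4, 12.8 and 12.04 CPM early in untreated ones (−3.29 ± 0.25). Hapln1, a link protein of hyaluronan, had 1.93, 0.926 and 1.42 CPM late, against 15.3, 14.2 and 12.6 CPM early in stimulated libraries and 6.33, 9.92 and 16.9 CPM late and 13.5, 11.7 and 12.6 CPM early in untreated ones (−3.02 ± 0.39). In these 4 genes every stimulated late library was below every untreated one. Il10, an anti-inflammatory cytokine, fell with 44.6, 21.5 and 9.41 CPM late, against 94.8, 118 and 162 CPM early in stimulated libraries, while untreated ones had 159, 141 and 65.5 CPM late and 83.03, 78.7 and 76.6 CPM early (−3.04 ± 0.28). Pou2f3, a POU domain factor, did not pass within stimulated libraries, with 3.02, 1.57 and 0.535 CPM late, against 2.903, 2.73 and 2.03 CPM early (adjusted p = 0.38). It rose in untreated ones, with 19.5, 17.9 and 6.997 CPM late and 4.03, 2.08 and 2.68 CPM early (−3.04 ± 0.32).

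The large falls of the immediate early genes were in part shared with untreated libraries. In that list the median late over early change was −2.22 in stimulated and −0.78 in untreated libraries, and 11 of 27 members had a lower difference. Much of the early level was already there at 0 min. The list's median log2 level relative to the stimulated early mean was −0.49 at 0 min in stimulated and −0.63 in untreated libraries. At 12, 24 and 48 h it was −2.18, −2.39 and −1.85 in stimulated libraries. Fosb and Nr4a3 fell by 5.58 and 4.69 on the log2 scale in untreated libraries too, and their differences did not pass (−1.71 ± 0.63 and −0.18 ± 0.54, adjusted p = 0.096 and 0.85). Plk2, Egr1 and Dusp5 fell further in stimulated than in untreated libraries (−2.93 ± 0.26, −2.70 ± 0.39 and −1.73 ± 0.28). Differences passed for 2 higher and 4 lower of 54 mitosis genes, 6 and 4 of 50 replication genes, and 1 and 0 of 34 proteasome genes, beside 8.76% higher and 9.27% lower over all genes. In untreated libraries 51, 41 and 31 members of these lists rose, beside 24% of all genes, with medians of 0.78, 0.52 and 0.70. Stimulated medians were 0.76, 0.54 and 0.84. Respiratory chain genes rose in 50 of 64 in untreated libraries as well (median 0.39 there and 0.41 in stimulated ones).

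Other lists held more differences. Glycolysis genes had 12 higher and 0 lower of 20, with a median change of 0.91 in stimulated and 0.61 in untreated libraries, and hypoxia genes had 9 and 0 of 16, with medians of 0.72 and −0.04. NF-kB genes had 12 higher and 5 lower of 37, IL-4 genes 8 and 1 of 20, costimulation genes 7 and 1 of 12, and cholesterol genes 7 and 0 of 24. Cholesterol genes rose in untreated libraries too, in 23 of 24, with a median change of 1.47 there and 1.87 in stimulated libraries. TGFb genes had 4 higher and 2 lower of 20, with medians of −0.31 in stimulated and −0.52 in untreated libraries. On the lower side stood B cell receptor genes, with 1 higher and 9 lower of 23, and B cell transcription factors, with 0 and 6 of 17. In single genes chosen for this contrast after their values were seen, Fas rose by 1.29 on the log2 scale in stimulated libraries. It fell by 2.15 in untreated ones, which had 4.31, 2.74 and 7.95 CPM late and 22.8, 23.1 and 21.1 CPM early (3.45 ± 0.19, adjusted p = 3.9e-05). Ccnd2 had 27.8, 28.03 and 52.2 CPM late and 57.2, 58.6 and 61.01 CPM early in untreated libraries (1.90 ± 0.16), and Tcf7 8.904, 5.42 and 7.48 CPM late and 8.64, 8.64 and 9.53 CPM early (3.26 ± 0.21). Rgs13 moved the other way round, with 478, 553 and 404 CPM late, against 727, 670.3 and 668 CPM early in stimulated and 1083, 1597 and 1420.4 CPM late and 771, 677 and 766 CPM early in untreated libraries (−1.40 ± 0.13).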

How the data were processed

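Poly-A libraries of 20 mouse samples (TruSeq, per the labels' protocols) were deposited as 1 table of whole-number counts per gene for each sample. Per the submitters' processing notes reads were aligned with STAR and counted with HTSeq on GRCm38.p3 (mm10). For versions, settings and the use of strand nothing is given in the sources used here, so overlapping, antisense and near-identical genes are uncertain. The small RNA data did not enter.

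Genes that reached 1 CPM in 3 or more libraries entered the test, made on the deposited counts by the quasi-likelihood F-test of edgeR 4.0.16 (R 4.3.3) after TMM scaling, with 6 libraries in 2 groups and a Benjamini-Hochberg adjusted p under 0.05. The difference between arms used 12 libraries, with time as a factor and a stimulated term for each of the early and late times. Standard errors are the log2 fold change divided by the root of F. CPM values shown were TMM-scaled over all 20 libraries. The scripts were tested on simulated counts. Alternatives used limma 3.58.1, DESeq2 1.42.0, other scalings, filters, lanes and groups, and each library left out. No 2 libraries shared counts at more than 0.514% of genes over 50 counts, so none were merged.

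Gene positions and exon lengths came from GENCODE vM21 (GRCm38), matched for 10697 genes by symbol, and promoters from RefSeq. Named genes were the 12 largest changes in each direction that passed, did not overlap and averaged at least 5 CPM, the 6 largest differences in each direction, the most abundant genes, and for each list up to 4 members of smallest p in its majority direction and up to 2 in the other. The comparison, the 32 gene lists and the 10 marker lists were chosen with earlier results of these data known. Some genes so chosen are not reported here.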

Additional observations from a re-analysis of the deposited data

Results flagged for a closer look

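The late over early change differed between stimulated and untreated libraries at 2149 of 11916 genes by edgeR's test of the difference itself, and these arms are also 2 animals in different lanes at every time. The genes named here passed that test and averaged at least 5 CPM over the 12 libraries of both arms. Among such genes the 6 largest positive differences (log2, stimulated minus untreated) were 5.63 for Gprin3, 4.96 for Neurl3, 4.63 for Susd2, 4.44 for Fcer2a, 4.03 for Gpr15 and 3.75 for Hrc. The 6 largest negative ones were −4.26 for Prox1, −3.58 for Pdzd2, −3.29 for Rnf122, −3.04 for Pou2f3, −3.04 for Il10 and −3.02 for Hapln1. In all 12 genes the 3 late stimulated-minus-untreated ratios lay on 1 side of the 3 early ones, which the choice of genes required. Of these, Pou2f3 was the one whose stimulated change did not pass the test (−0.58).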

How the results depend on the processing

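The count of 6236 genes past the test lay between 5500 and 7069 under the other scalings, filters, tools, lane term and choices of libraries, and between 4139 and 7509 with 1 library left out (2060 to 3732 higher, 2079 to 3777 lower), lowest without 30 min and highest without 48 h. Library totals as the only scaling gave 2506 higher and 3605 lower, against 3184 and 3052, with the median of all genes at −0.13 against −0.01. The count of 2149 differences was 615 with 4 groups and no time factor (281 higher, 334 lower) and 527 with lane added to that fit (251 higher, 276 lower). With 1 pair of libraries left out it ran from 1129 to 2713 (519 to 1386 higher, 610 to 1327 lower), and without 24 h it was 1448 (672 higher). Other alternatives gave 1959 to 2713. No named change or difference reversed. Of the named late over early values, 123 lost and 5 gained their call under an alternative, 3551 kept their side of the threshold or, within a lane and with no test, moved little, and 105 moved further within a lane, and of the named differences 2 lost it, Gprin3 without the 30 min pair (5.29, adjusted p = 0.054) and Fcer2a with lane and no time factor (4.32, adjusted p = 0.072). Counts within lists moved over 1.5 times in 178 of the cases and stayed within it in 1250. The cause of these moves was not tested. No paired analysis was possible because samples have no replicate number in their labels. Each time has 1 library per arm, so pairing by time entered the difference only. Depth limits genes near the floor of 3 counts, such as Vcam1 in early libraries.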

Other observations

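Some genes that B cells are known to express were listed near 0 in all 6 stimulated libraries. H2-K1 and H2-D1, of MHC class I, had at most 5 and 2 counts in a library, while B2m, their partner, had at least 29596. Tnf, Lta and Ltb, neighbours in the same gene region, had 0 counts in all 6. Madcam1, an adhesion molecule listed among stroma and endothelium markers, accounted for most of that list, which summed to 183 to 219 CPM late and 156 to 157 CPM early, and to at most 12.3 CPM late and 16.2 CPM early without it. Prf1, which encodes perforin, was the 1 natural killer cell marker that could be tested, and that list summed to 5.34 to 9.31 CPM late and 17.0 to 18.3 CPM early.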
